A study of Caenorhabditis elegans with 2 samples.

Results

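The genes described here are 6 genes of the worm pharynx, the muscular pump with which Caenorhabditis elegans feeds: the myosin heavy chain genes myo-1 and myo-2, the troponin genes tnc-2, tni-4 and tnt-4, and marg-1. They were taken by symbol from the Ensembl annotation (assembly WBcel235, the same sequence as build ce11), and all 6 were found among its 19973 protein-coding genes. For each gene, every region that touched the stretch from 2000 bp upstream of the annotated 5' end to the gene end was collected.

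The regions come from chromatin immunoprecipitation and sequencing (ChIP-seq) of HLH-6, which belongs to the basic helix-loop-helix (bHLH) family of DNA-binding proteins. The worms were hermaphrodites of the transgenic strain RW10702, whose HLH-6 carries GFP and FLAG at its C terminus, collected as late embryos 3.5 hours after synchronization by egg bleaching. Whole animals were used, and the factor was precipitated through GFP. There were 2 biological replicates, both of this group, and no other genotype, stage or treatment. The labels describe the tag as an insertion targeting hlh-6 and do not state its copy number, so how closely the tagged protein follows the normal amount of HLH-6 is not known here. The lists are those of the authors. A pooled list and a list for each replicate hold 30000 regions each and were made as input for IDR, which scores how reproducibly regions rank between replicates, so they reach down into background. The optimal list holds the 912 regions that passed IDR, and these were the 912 with the highest signal value in the pooled list, down to a value of 85.6. The signal value is the authors' own score for a region. Its scale is not given in the sources used here, and read depth is unknown. Values are therefore compared within a list only, and between the replicate lists, which are of equal length, ranks are set side by side as a description.

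Muscle contracts when myosin heads of the thick filament pull on actin of the thin filament. Troponin makes this depend on calcium: troponin C binds calcium, troponin I holds contraction back, and troponin T anchors the complex to tropomyosin. In C. elegans, myo-1 and myo-2 encode the myosin heavy chains of pharyngeal muscle, and tnc-2, tni-4 and tnt-4 encode pharyngeal forms of the troponin subunits. The upstream enhancer of myo-2 is a well-studied target of CEH-22, an NK-2 class homeodomain factor of pharyngeal muscle, and of PHA-4, the FoxA factor that specifies the pharynx. HLH-6 is known for its role in the pharyngeal glands, secretory cells that lie between these muscles. The RefSeq annotation names the marg-1 product as a marker of pharyngeal marginal cells, the epithelial cells between the muscle cells, so marg-1 is a pharyngeal gene but is not annotated as contractile.

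No optimal region lay at any of the 6 genes (0 of 6, where 5.20% of coding genes have one). The gene that came nearest was myo-2, with a promoter region at rank 1541 of the pooled list that was present in both replicates. Below it in the relaxed pooled list, myo-1 carried many weak regions, tnt-4, marg-1 and tnc-2 carried 1 or 2 each, and tni-4 carried none in any list. With chromatin from whole embryos, binding in few cells and weak binding in many cells cannot be told apart. The control experiment named in the labels was not analysed here, and no p-value was computed, since there is 1 group.

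In the relaxed pooled list, 5 of the 6 genes had a region, and 65.9% of coding genes had one. The count was 5 of 6 in the list of replicate 1 (68.9% of coding genes) and 4 of 6 in that of replicate 2 (67.4%), where tnc-2 had none. In 4 of the 6 genes (myo-1, myo-2, tnt-4 and marg-1) a pooled region overlapped a region in both replicate lists, which held for 47.5% of coding genes. With the summits required to lie within 100 bp of the pooled one in both replicates, a condition added after seeing the data, myo-1, myo-2 and tnt-4 remained and marg-1 did not (3 of 6, against 37.4% of coding genes). A pooled summit lay within the promoter window, from 1000 bp upstream to 200 bp downstream of an annotated transcription start site (TSS), in 3 of the 6 (myo-1, myo-2 and marg-1), against 36.0% of coding genes. Among the 1824 strongest pooled regions only myo-2 of the 6 had one (9.54% of coding genes). With 6 genes each of these counts can move by 1 through a single weak region, so nothing particular to the 6 is read from them.

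**Figure D1:**
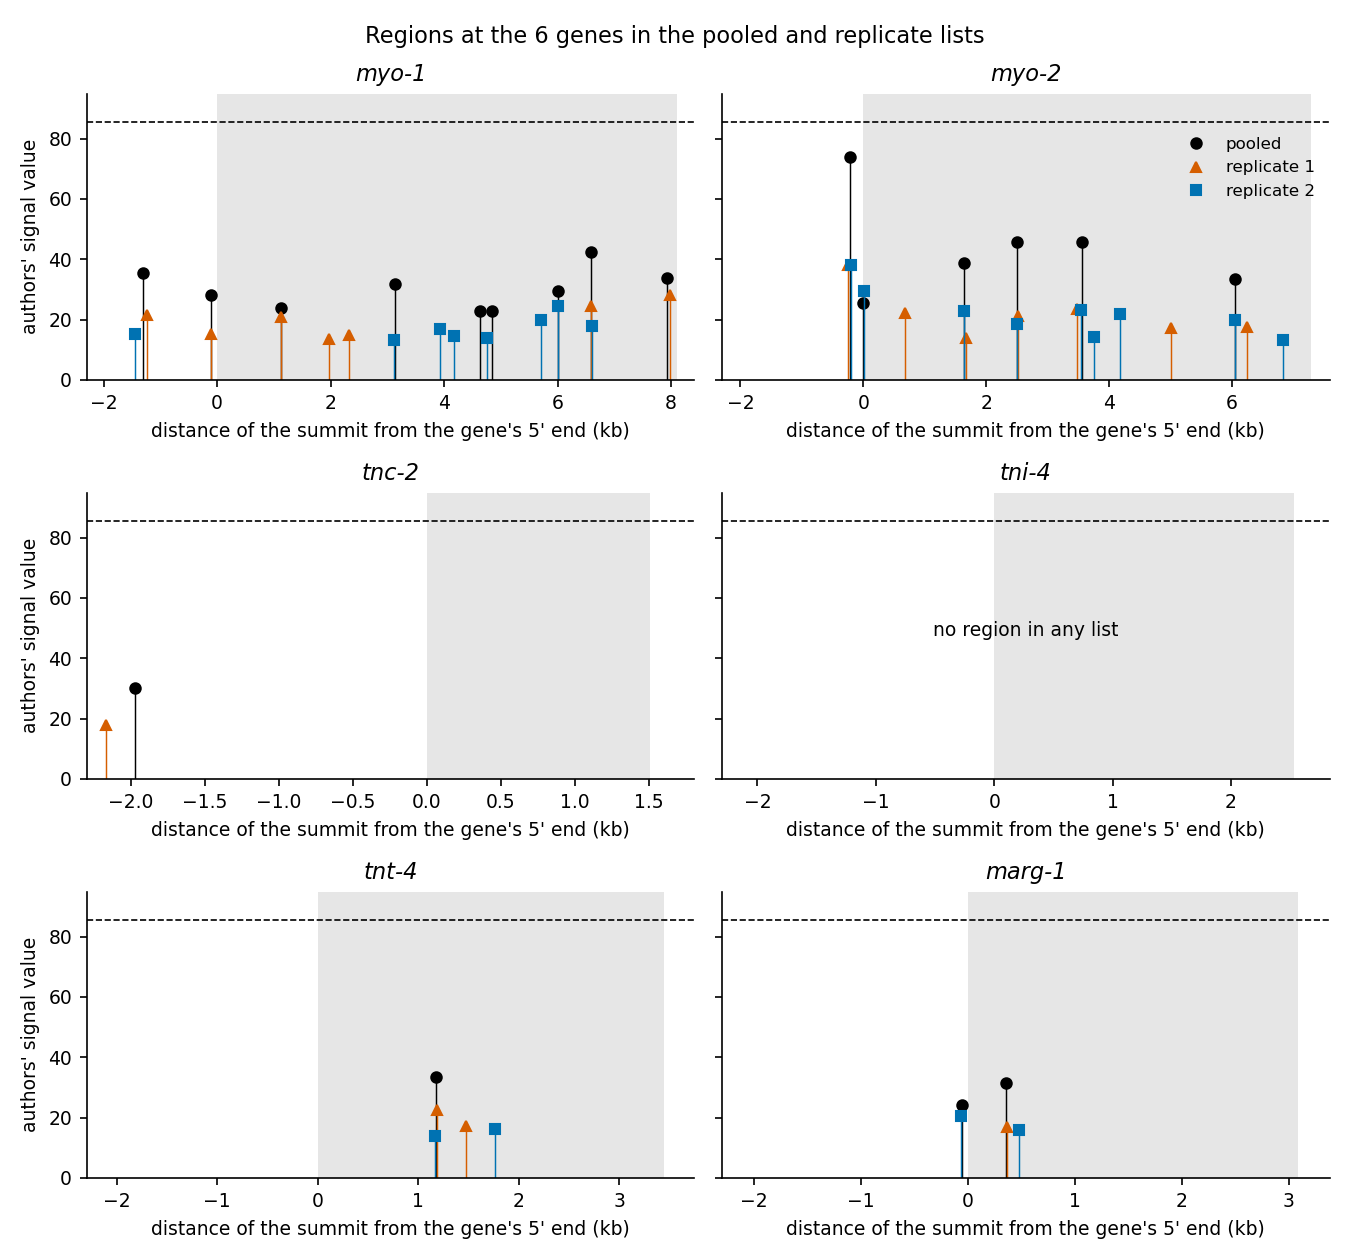
Each panel shows 1 gene, with the distance of a region's summit from the annotated 5' end in kb on the horizontal axis and the authors' signal value on the vertical axis; the shaded span is the gene, symbols are the pooled and replicate lists, each with its own scale, and the dashed line is the lowest optimal value of 85.6. The pooled promoter region of myo-2 at 74.0 is the highest point, and tni-4 has no point.

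The strongest pooled region of myo-2 had a signal value of 74.0 (rank 1541 of 30000) and a −log10 q-value of 2.31, as deposited by the authors. It spans chrX:12467616-12468075 (ce11), with its summit at 12467846, 215 bp upstream of the annotated start of myo-2 at 12468061. Replicate 1 had a region with a signal value of 38.0 at rank 1812, with its summit 253 bp upstream, and replicate 2 had one with a signal value of 38.2 at rank 2012, with its summit 197 bp upstream. Both replicates thus placed it within 38 bp of the pooled summit and at like ranks. The value exceeded the strongest region in the window of 91.8% of coding genes in the pooled list, 90.6% in that of replicate 1 and 89.7% in that of replicate 2, where genes without a region count as lower. These shares take no account of window length, which is 9288 bp for myo-2 against a median of 4027 bp for coding genes. The 300 bp around the pooled summit are shown because this is the strongest region at any of the 6 genes, on the strand of myo-2, from 364 to 65 bp upstream of its start (chrX:12467697-12467996, plus strand of the RefSeq genome of WBcel235), with matches to the motifs searched in capitals:

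myo-2 promoter: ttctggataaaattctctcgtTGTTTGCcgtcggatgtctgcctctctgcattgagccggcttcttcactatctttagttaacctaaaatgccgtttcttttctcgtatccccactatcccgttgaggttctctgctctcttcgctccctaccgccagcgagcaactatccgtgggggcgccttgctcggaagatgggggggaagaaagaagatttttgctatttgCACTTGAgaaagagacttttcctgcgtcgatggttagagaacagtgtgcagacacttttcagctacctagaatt

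The motifs searched, on both strands, were the E-box CANNTG of bHLH proteins, TNAAGTG as bound by NK-2 class factors such as CEH-22, and TGTTTGC. The last is the form of the PHA-4 site known from the myo-2 enhancer itself. A match to it at this gene therefore follows from the choice of motif and is no separate find. The 300 bp held 1 match to each of the 3 motifs. The PHA-4 form began 343 bp upstream of the gene start, 128 bp upstream of the summit. The E-box CACTTG and the NK-2 match CACTTGA began at the same base, 138 bp upstream of the gene start and 77 bp downstream of the summit, so that the E-box lies inside the NK-2 match. Of windows of the same length at all 30000 pooled summits, 72.1% held CANNTG, 12.96% TNAAGTG and 5.54% TGTTTGC. None of the 3 lay within 50 bp of the summit, and a match is a description of the letters only.

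This stretch is shared with other annotated genes. The summit lay inside the noncoding RNA genes T18D3.13 and T18D3.14, whose annotated bodies overlap in the myo-2 promoter, and 104 bp upstream of the noncoding RNA gene T18D3.10. It also lay 929 bp upstream of the coding gene cdf-2, which encodes a cation diffusion facilitator and is transcribed away from myo-2. Which of these genes the region belongs to was not tested. A weaker pooled region, overlapping the first, had its summit 1 bp upstream of the myo-2 start (signal value 25.4, rank 25256). Replicate 2 had a separate region there (29.3, rank 5108, summit 16 bp downstream), while in replicate 1 the only region overlapping it was the one at 253 bp upstream.

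Inside myo-2, which has 12 exons over 7288 bp (chrX:12468061-12475348, WBGene00003514), 4 further pooled regions were listed, each of which overlapped a region in both replicates. The strongest of these lay in coding exon 8 (summit 3562 bp from the start), with a pooled signal value of 45.9 (rank 7273) and values of 23.4 (rank 8803) and 23.1 (rank 10111) in replicates 1 and 2. A region in exon 7 at 2493 bp was almost as high in the pooled list (45.6, rank 7392), with ranks of 11695 and 16472 in the replicates. The other regions were in intron 6 (1644 bp, 38.8, rank 11130) and exon 10 (6044 bp, 33.6, rank 15329). The intron region differed most between the replicates, at rank 26496 in replicate 1 and 10539 in replicate 2. For the region in exon 10, the overlapping region of replicate 1 had its summit 200 bp away, in intron 10. The 4 regions had −log10 q-values from 0.34 to 0.79, against 2.31 for the promoter region. The replicate lists held 7 regions in the myo-2 window in replicate 1 and 9 in replicate 2. The promoter region was the strongest of them in both.

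The other pharyngeal myosin gene, myo-1, lies on the minus strand of chromosome I from 7258946 to 7267057 (WBGene00002348), with 9 exons over 8112 bp. It had the most pooled regions of the 6 genes, 9, with signal values from 22.7 to 42.3 and ranks from 9085 to 29663. The highest −log10 q-value among them was 0.65. Of these 9, 2 overlapped a region in both replicates (60.6% of all pooled regions did) and 7 in 1 replicate only (36.2%). Of the 7, those with summits at 4840 and 4639 bp overlap each other and share 1 region of replicate 2 (rank 27050), so they are not independent. The strongest of the 9 lay in coding exon 7, 6589 bp from the start, with a pooled value of 42.3 (rank 9085). Its values were 24.5 in replicate 1 (rank 7685) and 18.0 in replicate 2 (rank 17722). The second region present in both replicates lay 1303 bp upstream, with a pooled value of 35.5 (rank 13595) and ranks of 11130 and 23937. The strongest region of each replicate was absent from the other: in replicate 1 it lay in the 3' untranslated part of exon 9 (28.2, rank 4983, 7976 bp from the start), and in replicate 2 in exon 6 (24.5, rank 8587, 6002 bp). The regions listed along myo-1 thus differed between the replicates for most of the 9. The lists end at signal values of 12.9 in replicate 1 and 13.0 in replicate 2. A region missing from a list may have signal below these values, so whether the position of signal itself differed was not tested. A weak region 109 bp upstream (28.1, rank 21415) had its summit inside the noncoding RNA gene F21C3.10 and was met in replicate 1 only. The noncoding RNA gene R06C7.12 starts 714 bp from the summit of the region at the 3' end.

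**Figure D2:**
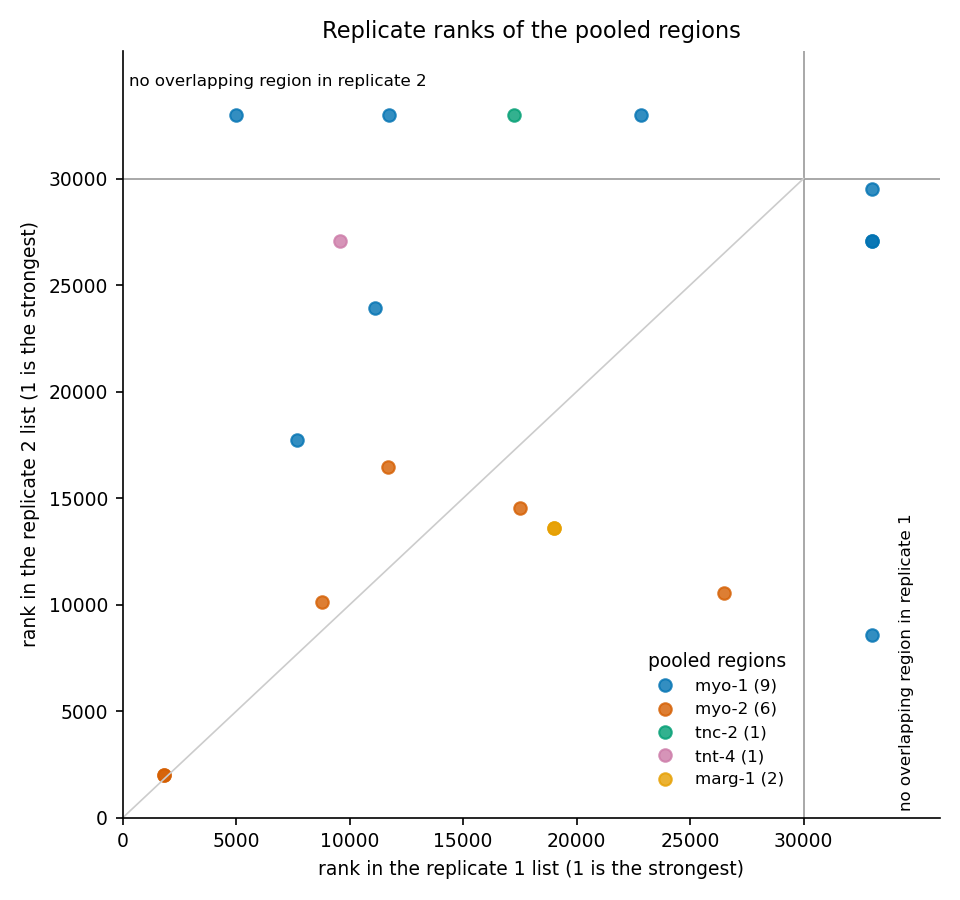
Each point is 1 of the 19 pooled regions at the 6 genes, placed by the rank of the strongest overlapping region in the list of replicate 1 (horizontal) and of replicate 2 (vertical), rank 1 being the strongest of 30000; points beyond the grey lines had no overlapping region in that replicate, and 3 points stand for 2 regions each. The myo-2 promoter is at lower left, and 7 of the 9 myo-1 regions lie beyond a line.

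The troponin genes had at most 1 pooled region each. The troponin T gene tnt-4 (chrV:1989471-1992918, minus strand, WBGene00006589) had 1 pooled region, with its summit in a coding exon 1173 bp from the gene's 5' end, a signal value of 33.4 and rank 15481. Its summit was placed within 10 bp by both replicates, but at rank 9579 with a value of 22.7 in replicate 1 and at rank 27078 with a value of 14.0 in replicate 2. Each replicate had 1 more region inside the gene, at 1478 bp in replicate 1 (17.0, rank 18703) and at 1759 bp in replicate 2 (16.1, rank 21584). The strongest region of tnt-4 exceeded that of 53.0% of coding genes in the pooled list, 64.6% in that of replicate 1 and 42.7% in that of replicate 2. In replicate 2 this was the region at 1759 bp and not the one at the pooled summit, so the shares do not follow 1 region.

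The troponin C gene tnc-2 (chrII:10466852-10468358, plus strand, WBGene00006583) had 1 pooled region, at the far edge of its window, with its summit 1973 bp upstream, a signal value of 30.1 and rank 18995. That summit lay 9 bp into sdz-37, a coding gene annotated as a zygotic transcript that depends on SKN-1, and 549 bp upstream of ZK673.6, so the region is nearer to both of these genes than to tnc-2. In replicate 1 the overlapping region had its summit 2169 bp upstream (17.7, rank 17228), beyond the window, and replicate 2 had none. The gene itself and its proximal upstream sequence held no region in any list. The troponin I gene tni-4 (chrIV:5204591-5207124, plus strand, WBGene00006586) had no region in its 4534 bp window in the pooled list or in either replicate. Its window holds 10 piRNA genes, small RNA genes of the germline, against 1 in the window of marg-1 and 0 in the others.

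marg-1 (chrX:3778056-3781140, minus strand, WBGene00018538) had 2 pooled regions around its start. The stronger had its summit in a coding exon 358 bp from the gene's 5' end (signal value 31.4, rank 17464), and the weaker had it 57 bp upstream (24.3, rank 27000), inside the noncoding RNA gene F47B7.13. They differed between the replicates. The single region of replicate 1 lay 365 bp into the gene (16.9, rank 19015), at the stronger pooled summit. In replicate 2 the stronger of 2 regions lay 61 bp upstream (20.4, rank 13591), at the weaker pooled summit, and the other lay 477 bp into the gene (16.0, rank 21975). A second noncoding RNA gene, F47B7.9, starts 136 bp from the upstream summit. Both pooled summits at this gene start had an E-box within 50 bp, and the sequences were picked for this reason. Pooled summits at the myosin genes had E-boxes too, such as those 1303 bp upstream of myo-1 and 2493 bp into myo-2. The 101 bp around each marg-1 summit are shown, on the strand of marg-1, with E-boxes in capitals:

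marg-1 start, chrX:3781147-3781247: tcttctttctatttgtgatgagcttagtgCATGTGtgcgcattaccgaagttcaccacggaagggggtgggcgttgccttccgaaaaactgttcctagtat
marg-1 exon, chrX:3780732-3780832: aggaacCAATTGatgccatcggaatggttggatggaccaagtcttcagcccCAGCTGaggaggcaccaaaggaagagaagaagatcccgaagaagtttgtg

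The E-box at the start was CATGTG, beginning 21 bp upstream of the summit and 78 bp upstream of the gene's 5' end. The exon window held 2, CAATTG beginning 44 bp upstream of the summit and CAGCTG beginning 1 bp downstream of it. Across the 19 pooled summits at the 6 genes, 6 had an E-box within 50 bp (31.6%), against 36.4% of all 30000 pooled summits. TNAAGTG was present at 1 of 19 (5.26%, a summit in intron 2 of myo-1) against 4.28%, and TGTTTGC at 0 of 19 against 1.97%. These shares stand near those of all pooled summits, and the summits of 1 gene are not independent of each other.

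By position, 10 of the 19 pooled summits lay in coding exons, 6 upstream, 2 in introns and 1 in the untranslated part of an exon. Coding exons of the 6 genes themselves make up 39.2% of the bases in the 6 windows and held 52.6% of the summits. Over the nuclear genome, the coding exons of all coding genes make up 24.6% of the bases and held 35.8% of pooled summits. A share of summits above the share of bases was thus seen in both, but coding exons of other genes in the 6 windows were not counted. Coding sequence is the larger part of the myo-2 window (62.9%) and of the myo-1 window (57.5%) and from 12.8% (tni-4) to 20.7% (marg-1) of the others. The GC content of the windows fell in nearly the same order, from 44.7% in myo-2 and 41.2% in myo-1 to 33.6% in tni-4. The 101 bp around the 19 summits had a median GC content of 50.5%, with 60.4% at the myo-2 promoter summit, against a median of 44.6% at all pooled summits (quartiles 39.6% and 50.5%). The part of GC content and of coding sequence in where regions were listed was not tested.

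Counted per kb, the 6 windows held 0.50 pooled regions, 0.47 regions of replicate 1 and 0.55 of replicate 2, against 0.34 in each list over the windows of all coding genes. The density in the pooled list was 0.89 per kb at myo-1 and 0.65 at myo-2, and from 0 at tni-4 to 0.39 at marg-1. Pooled regions that overlap each other were counted separately. The regions at both myosin genes, 15 of 19, therefore set the sum, and their windows of 10112 and 9288 bp are long beside the median of 4027 bp for coding genes.

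In order of their strongest pooled region the genes were myo-2 (74.0), myo-1 (42.3), tnt-4 (33.4), marg-1 (31.4), tnc-2 (30.1) and tni-4 with none. The median over all coding genes was 31.6 with genes without a region set at 0, and 42.5 over the 13165 that have one. The windows of myo-2 and myo-1 (9288 and 10112 bp) are also the longest of the 6, and window length was not taken into account in these values. Within the replicates myo-2 and myo-1 kept the first and second places, at ranks 1812 and 4983 in replicate 1 and 2012 and 8587 in replicate 2. The order of the others was not stable: tnt-4 led tnc-2 and marg-1 in replicate 1, and marg-1 led tnt-4 in replicate 2.

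**Figure D3:**
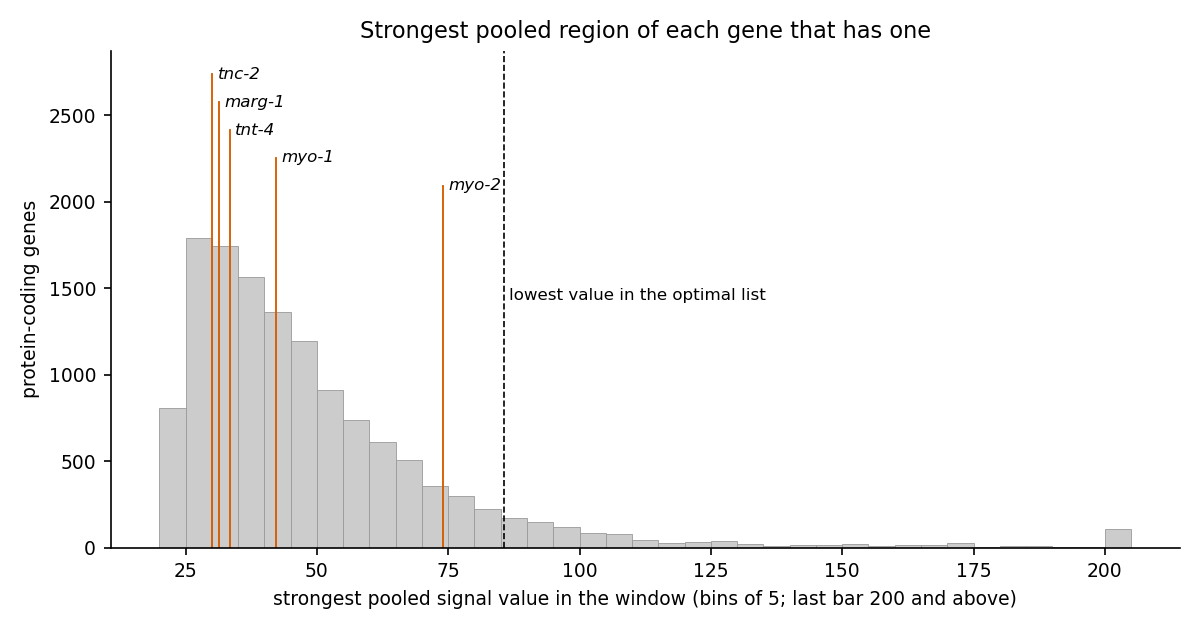
Bars count the protein-coding genes by the signal value of the strongest pooled region in their window, in bins of 5 with values of 200 and above in the last bar; genes without a region are left out. Vertical lines mark the 5 genes with a region, and myo-2 at 74.0 lies nearest to the dashed line at the lowest optimal value of 85.6.

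Other myosin, troponin and filament genes, and transcription factor genes of the pharynx, were read in the same windows. Over all coding genes, 5.20% had an optimal region and 65.9% a pooled one, and these shares stand beside each count below. Of 4 other myosin heavy chain genes, 1 had an optimal region, unc-54, the major myosin of body wall muscle, with a signal value of 98.4 at a summit 184 bp upstream of its start. myo-5 had its strongest pooled region at 83.8 (rank 979), myo-3, the other body wall myosin, at 59.3 (rank 3352) and myo-6 at 47.7 (rank 6512). The promoter summit of myo-2 thus lies at nearly the same distance from the gene start as that of unc-54, with a lower value. This distance is not particular to both genes. The strongest summits of mup-2 and mlc-2 in the lists below lay 188 and 245 bp upstream, while others, such as that of myo-5 (4842 bp into the gene), lay elsewhere.

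Of 7 troponin genes outside the 6, none had an optimal region and all 7 had a pooled one. The highest were the troponin T gene mup-2 (68.6, rank 2043, 188 bp upstream), the troponin I gene tni-1 (68.0, rank 2102, 159 bp upstream), the troponin T gene tnt-3 (67.7, rank 2146, 984 bp into the gene) and the troponin I gene tni-3 (50.4, rank 5546). The lowest of the 7, the troponin I gene unc-27, reached 35.5. The pharyngeal troponin genes, at 33.4, 30.1 and no region, thus lay below each of the 7 in the pooled list. In the replicates these values overlapped: tnt-4 at rank 9579 in replicate 1 stood above unc-27 at rank 11288 and tnt-2 at rank 18820, while in replicate 2 tnt-4 stood at rank 21584, below each of the 7.

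Of 10 filament genes, 2 had an optimal region, the actin gene act-3 (95.5, 1302 bp upstream) and the myosin light chain gene mlc-2 (87.3, 245 bp upstream). They were followed by the actin gene act-4 (81.5, rank 1099) and the myosin light chain gene mlc-3 (68.5, rank 2047). This list includes act-5, an actin known from the intestine.

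Of 7 transcription factor genes of the pharynx, 2 had an optimal region. They were the T-box gene tbx-2 (102.0, rank 489, 74 bp upstream) and the Six-family homeobox gene ceh-34 (92.3, rank 694, 68 bp upstream). The list was drawn up for pharyngeal muscle, but whether each of the 7 acts there was not examined. ceh-22, whose product acts on the myo-2 enhancer, had its strongest pooled region 792 bp into the gene (81.9, rank 1077). The strongest of pha-4 lay 5124 bp into the gene (57.0, rank 3777). These genes have 5 and 3 annotated transcripts, and whether either summit lies near an internal start site was not examined. ceh-28 had none. The medians of the strongest pooled value were 32.4 for the 6 genes, 71.6 for the other myosins, 50.4 for the other troponins, 64.5 for the filament genes and 57.0 for the factors, against 31.6 over all coding genes. The 6 values span from no region to 74.0, so their median describes none of them closely. The lists are short, their genes differ in length, and the difference between lists was not tested.

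**Figure D4:**
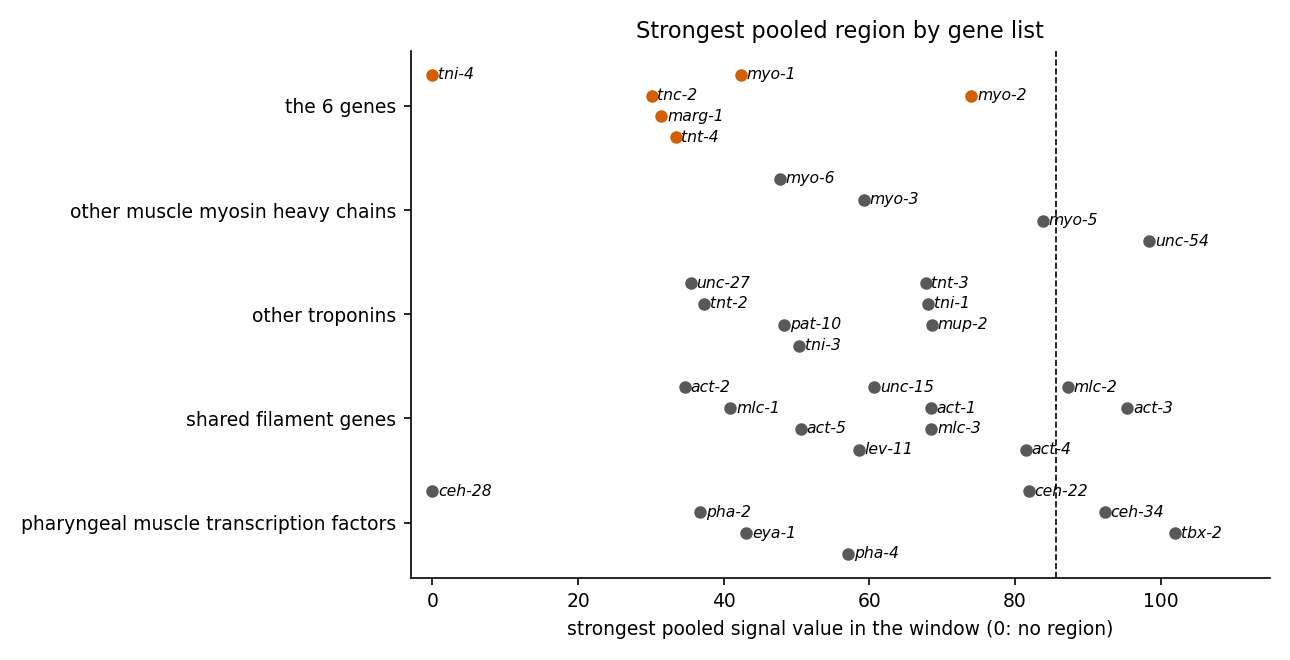
Each point is 1 gene, placed by the signal value of the strongest pooled region in its window, with 0 for no region, in rows by gene list; the vertical offset within a row only separates the names. The dashed line is the lowest optimal value of 85.6, which unc-54, mlc-2, act-3, ceh-34 and tbx-2 exceed and none of the 6 genes reaches.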

How the data were processed

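The authors deposited region lists in the narrowPeak layout. Per the README texts beside them, each replicate list came from the alignments of 1 replicate and a control, the pooled list from both replicates' alignments and a control, and the optimal list from these by IDR, on build ce11. The sources used here name no aligner, peak caller or IDR threshold. The authors gave every region a signal value (a deposited score of unstated scale), the −log10 of its q-value, and a summit offset in bp. Depth per sample is unknown, so no interval reflects reads.

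Genes came from Ensembl release 115 (WBcel235, the coordinates of ce11) and sequence from the RefSeq genome of that assembly. No region ended beyond its chromosome. Lists on build ce10 were not used. Regions were ranked by signal value in each list and joined to gene windows by an overlap of at least 1 bp with Python 3.11.15, whose overlap code was tested on made-up intervals. Distances are from the summit to the outermost annotated 5' end of the gene. For the listed genes outside the 6, distances to other start sites of the same gene were not computed. Shares over coding genes stand in place of tests. The named genes are the 6 members, up to 4 genes of each list with the highest pooled value (unc-27, tnt-2, act-5 and ceh-28 were added once their values were known), and genes whose body or promoter window holds a counted summit. The members and lists were chosen with earlier results of these data known. Alternatives were other windows, overlap rules, list lengths and single replicates.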

Additional observations from a re-analysis of the deposited data

How the results depend on the processing

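The absence of optimal regions at the 6 genes held with summits in place of overlaps, with 50% of a region in the window, in the other 3 windows, in the 456 strongest optimal regions and in the 912 strongest regions of either replicate alone. It did not hold in the 1824 strongest pooled regions, where 1 gene, myo-2, had one. The 5 genes with a pooled region became 3 in the promoter window and 1 at a −log10 q-value of at least 2, and the 19 pooled regions became 5 and 1 under the same settings, which by construction count less sequence or fewer regions. The shares over all coding genes under these settings are not given here, so nothing particular to the 6 is read from these counts. In the replicate lists alone the genes ranged from 4 to 5 and the regions from 18 to 21. The 11 pooled regions met in both replicates became 6 with summits within 100 bp in both (34.6% of all pooled regions), namely 4 of myo-2, 1 of myo-1 and 1 of tnt-4. The 11 became 9 with an overlap of 50% of the pooled region, for which no share over all pooled regions is given. With only the 15000 strongest regions of each replicate they became 3, all at myo-2 (15.8% of the 19, against 32.0% of all pooled regions). Of these, the regions 215 and 1 bp upstream of myo-2 share 1 region of replicate 1, so they are not independent. Both marg-1 regions among the 11 likewise share 1 region of replicate 1. With 11 of 19 met in both (57.9%) and 60.6% of all pooled regions, most regions of myo-1 and the region of tnc-2 rest on 1 replicate. No paired analysis was possible because there is 1 group. Depth is unknown, so the smallest detectable binding cannot be given.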

Other observations

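Outside the windows, the nearest optimal region lay 9809 bp upstream of the myo-2 start (signal value 98.5), in the promoter window of a tRNA gene, and 15335 bp from the start of myo-1 (96.4), between the divergent genes lin-61 and bub-1, whose products act in chromatin repression and at the spindle checkpoint. For tnc-2, marg-1, tnt-4 and tni-4 the distances were 62720, 43538, 518213 and 544041 bp. The region nearest to tnc-2 had its summit in mab-10, and that nearest to marg-1 had it in the forkhead gene fkh-9.

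Beyond the 3' end of tni-4, both replicate lists held a region in the gene nbet-1 at nearly the same place, 5084 bp from the tni-4 start in replicate 1 (signal value 13.9, rank 26772) and 5081 bp in replicate 2 (21.7, rank 11764), while the nearest region of the pooled list lay 18060 bp upstream. The genes named here were picked with their values in view.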
